A study of Mus musculus with 16 samples.

Results

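CT26 is a mouse colon carcinoma line of Balb/C background, originally obtained from a chemically induced tumour and widely transplanted into immunocompetent mice. Its copy number profile was taken from the 1 array, of 16 in the series, whose cell line label is CT26 and whose tissue label is colon. The array compared genomic DNA of the cultured line, labelled with the red dye Cy5, with a commercial mouse genomic DNA labelled with the green dye Cy3. The other 15 arrays carried the Balb/C lines 4T1 (breast) and Renca (renal), the DBA/2 line P815 (mast cells) and 12 arrays of C57BI6 lines. The C57BI6 arrays were MC38 (colorectal), LL2 (lung), 4 arrays of B16 sublines (melanoma), Hepa1-6 (liver), PAN02 (pancreas), TRAMPC1 and TRAMPC2 (prostate), EL4 (blood) and ID8 (ovary). No line was treated. With the B16 and the TRAMPC sublines each counted as 1 family, the series held 12 families, of which 8 were C57BI6. CT26 was hybridised once, from 1 culture, so its profile has no replicate. The same reference DNA lies in the denominator of every array.

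Array comparative genomic hybridisation reads the dose of DNA at each probe as the ratio of the sample to the reference. A gain of chromosome copies raises the ratio over all probes of the gained stretch, and a loss lowers it. Tumour lines pass through rounds of missegregation, breakage and rejoining, so their profiles mix whole-arm changes with short deletions and amplifications. Inbred mouse strains also differ from each other by inherited deletions and duplications, and a strain difference between a line and the reference gives the same kind of signal as a tumour change. The Balb/C lines 4T1 and Renca arose in other tissues, and therefore serve here to show which signals of CT26 belong to its strain. All values are log2 ratios of line over reference, centred on the median of the autosomal probes of the array. A value of 0 is therefore the middle of the CT26 autosomes and not a count of copies.

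The array gave values for 220645 of 220668 autosomal probes of CT26, at a median spacing of 7827 bp on the mouse build mm8. In the CT26 channel 99.5% of all probes were well above background. The noise between neighbouring probes was 0.357 for CT26, against 0.219 to 0.406 on the other 15 arrays. At this noise a stretch that differs by 0.3 from both neighbours is found only if it holds about 209 probes, or 1.64 Mb. A step of 1 needs 19 probes and a step of 2 needs 5 probes, so short changes are seen only where they are deep. Errors of segment means are standard errors over probes and measure noise along the genome, not the spread between cultures.

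The CT26 autosomes were divided into 179 segments by 160 breakpoints, positions where the mean ratio changed. The other 15 arrays had 47 to 376 breakpoints, and 7 of them had more than CT26. A segment mean at or above 0.3 was called a gain and one at or below -0.3 a loss. Gained segments covered 12.1% of the autosomal probes of CT26 and lost segments covered 4.11%. Just inside the threshold lay a chromosome 7 segment at 0.30 and the first segment of chromosome 3 at -0.31. Just outside it lay a chromosome 6 segment at 0.29 and a chromosome 12 segment at -0.29. The profile as a whole differs from those of 4T1 and Renca in which chromosomes are high or low, as the plot of 1 Mb bins shows.

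**Figure D1:**
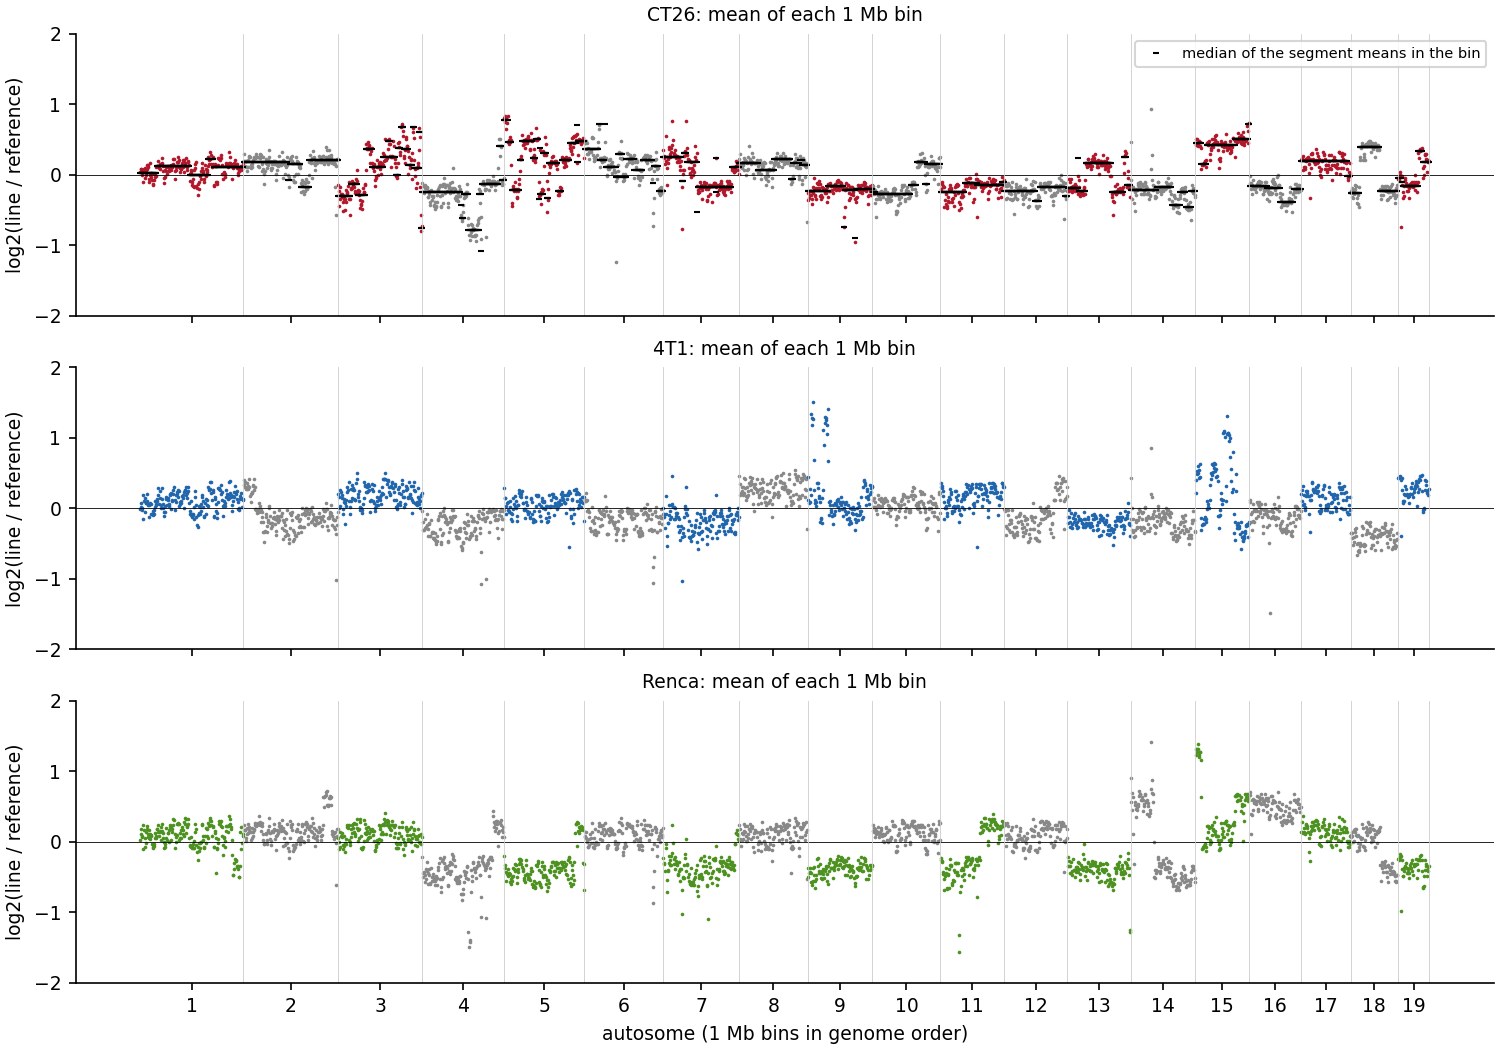
Mean log2 ratio of line over reference (vertical axis) in bins of 1 Mb along the 19 autosomes (horizontal axis, genome order, alternating colours by chromosome) for the Balb/C lines CT26, 4T1 and Renca. Black marks in the top panel are the median CT26 segment mean in each bin. CT26 is high over chromosome 15 and the middle of chromosome 18 and low in the middle of chromosome 4, and it changes level many times on chromosomes 3 and 5.

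Most of the CT26 genome sat at a pair of levels on either side of 0. Segments of at least 1 Mb grouped around -0.21 covered 46.7% of the segmented autosomes in 59 segments, and those around 0.16 covered 40.2% in 48 segments. The step between these levels was 0.37. Above them, 18 segments around 0.43 covered 10.6% and 6 segments around 0.72 covered 0.824%, after steps of 0.27 and 0.29. Below them lay 5 segments around -0.76 and 1 segment at -1.08. For orientation, the log2 step from 2 to 3 copies is 0.58 in a pure sample without compression, from 3 to 4 copies 0.42, from 4 to 5 copies 0.32 and from 5 to 6 copies 0.26. Copy numbers were not assigned to the levels, because neither ploidy nor the compression of the ratios was measured.

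**Figure D2:**
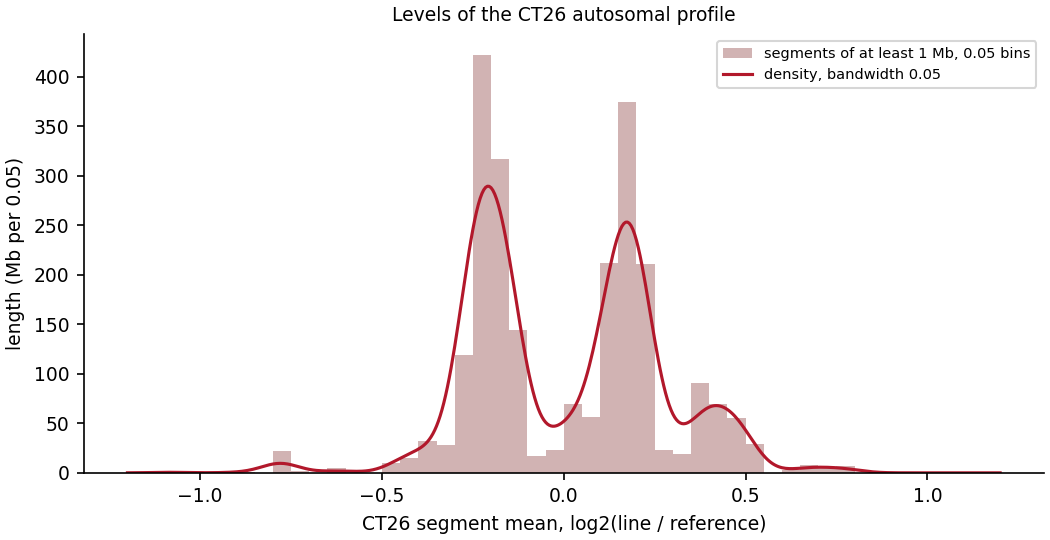
Length of the CT26 autosomes (vertical axis, Mb for each 0.05 of log2 ratio) at each segment mean (horizontal axis, log2 ratio of CT26 over reference), for segments of at least 1 Mb. Bars are a histogram and the line is a density with a bandwidth of 0.05. The 2 tall peaks lie at -0.21 and 0.17, and lower ones at 0.42, 0.71 and -0.78.

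The number of levels depended on the smoothing. A bandwidth of 0.04 gave 7 peaks and one of 0.03 gave 10, in place of the 6 at 0.05. When the median of the other 11 families was subtracted at each probe, the density peaked at -0.59, -0.26, 0.01, 0.54 and 0.82. The main pair at -0.21 and 0.17 was thus not found at the same places under that subtraction. The levels were examined after the profile had been seen.

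Because 0 lies between the main levels, the gains and losses depend on which level is taken as the baseline. Centring on the most common segment level, at -0.21, put 47.2% of the autosomal probes in gains and 1.50% in losses. Differences between segments of CT26, such as breakpoint steps, do not depend on that choice.

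The broad changes, segments of 5 Mb or longer past the threshold, numbered 22 on 10 chromosomes and spanned 354 Mb. They comprised 16 gains over 254 Mb, with means from 0.31 to 0.78, and 6 losses over 100.1 Mb, with means from -0.78 to -0.31. In 9 of the 16 gains and 1 of the 6 losses CT26 had the most extreme mean of the 12 families on the same probes. The segments were chosen for being high or low in CT26, so such an excess carries no test. With 1 array of CT26 among 12 families, the smallest p an exact permutation test could give is 0.083.

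The deepest broad loss lay on chromosome 4, chr4:88864714-108923720, a stretch of 20.1 Mb and 1952 probes. CT26 stood at -0.78 ± 0.0092 (SE over probes). On the same probes 4T1 stood at -0.24, Renca at -0.55 and P815 at -0.38, and the C57BI6 families ranged from -0.36 to 0.49 with a median of -0.22. CT26 was the lowest of the 12 families there, and its flanking segments of 8.56 Mb and 3.39 Mb both stood at -0.27. Mouse chromosome 4 carries the cell cycle inhibitor genes Cdkn2a and Cdkn2b. The arrays pair no probe with a gene and no annotation of mm8 was used, so genes were not placed within segments.

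On chromosome 18, chr18:19673431-57062836 (37.4 Mb, 3388 probes) was gained in CT26 at 0.39 ± 0.0069. The same probes averaged -0.37 in 4T1, 0.12 in Renca and -0.08 in P815, and the C57BI6 families ranged from -0.28 to 0.06. CT26 was the highest of the 12 families. The segment proximal to the gain stood at -0.26, so the step at its start was 0.65. The segment distal to it, chr18:57071158-90727455, stood at -0.23. Chromosome 18 carries Apc, a brake on Wnt signalling in the colon, and the TGF-beta signal mediators Smad2 and Smad4. These genes were picked out after the values had been seen, and were not placed inside or outside the gain. Gained segments covered 42.6% of the chromosome 18 probes of CT26, and lost segments covered 0%.

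Chromosome 15 was the only autosome with at least 90% of its CT26 probes called in 1 direction. Gained segments covered 94.3% of its probes, at a chromosome median of 0.44. Among the 45 genes of the lists used here, Myc, a growth-promoting transcription factor on chromosome 15, was the only 1 on such a chromosome. The 3 broad chromosome 15 segments of CT26 stood at 0.45, 0.43 and 0.50. On the same probes 4T1 stood at 0.45, 0.43 and -0.24, Renca at 1.27, 0.18 and 0.58, and the medians of the other 11 families were 0.44, 0.32 and 0.29. In each of these 3 segments CT26 lay within the range of the other families. The last 2.02 Mb, chr15:101463253-103482674, rose further to 0.72 ± 0.017 in CT26, against -0.21 in 4T1, 0.65 in Renca and 0.31 to 0.71 in the C57BI6 families. CT26 was the highest there, though ID8, at 0.71, lay within the error of CT26.

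The first 26.0 Mb of chromosome 6 that the array covers stood at 0.36 ± 0.0078 in CT26, against -0.13 in 4T1 and 0.05 in Renca and -0.36 to 0.70 in the C57BI6 families. It was followed by a narrower and higher step, chr6:29028299-30737682, at 0.72 ± 0.022, where the C57BI6 families ran from 0.06 to 0.84. In both segments 1 other family was higher than CT26. In all, 17.4% of the chromosome 6 probes of CT26 were gained.

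The other broad losses of CT26 were shallower and were matched or exceeded elsewhere. On chromosome 14 the segments chr14:79750974-94765071 and chr14:106217592-115975201 stood at -0.43 and -0.46. The medians of the other 11 families there were -0.35 and -0.41, and Renca stood at -0.60 and -0.58. A chromosome 12 segment of 7.42 Mb stood at -0.37 in CT26 and -0.37 in 4T1. A chromosome 16 segment of 24.5 Mb stood at -0.38 in CT26, -0.26 in 4T1 and 0.36 in Renca, within a C57BI6 range of -0.49 to 0.11. The gain of chromosome 19, chr19:40751059-48780726, stood at 0.34 in CT26 beside a median of 0.35 in the other families.

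Chromosome 11 had no broad segment past the threshold but was low along its length. Its CT26 median was -0.17, and all 11 other families were higher, from -0.11 to 0.28. The segments of CT26 outside 2 short losses, both also seen in 4T1 and Renca, stood between -0.24 and -0.11. Trp53, a tumour suppressor of the DNA damage response, lies on chromosome 11, where 0.128% of the CT26 probes were in lost segments. Chromosome 17 carries the class I antigen presentation genes H2-K1, H2-D1, Tap1, Tap2 and Tapbp. It had 2 segments in CT26, no probe in a gain or a loss and a median of 0.16, against 0.15 in 4T1 and 0.17 in Renca. Chromosome 2, with the class I light chain gene B2m, had a median of 0.14 and 0.102% of its probes in losses. These genes were also picked out after the values had been seen.

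Breakpoints between segments that were both longer than 1 Mb numbered 88, and 60 of them were found in no other family within 200 kb and in the same direction. Of the 88, 16 were found in 4T1 or Renca and 7 in both. The median step at these breakpoints was 0.32, and the median distance between the probes on either side was 11.7 kb. The other 72 breakpoints bound shorter segments, with a median step of 2.37. Of those 72, 53 were found in 4T1 or Renca and 48 in both, while 16 were found in no other family. Broad steps of CT26 were thus mostly found in no other family by this rule. Edges of short segments were mostly shared with the other Balb/C lines. Not all of those are particular to Balb/C, since another 16 of the 72 were in 6 or more other families, and 6 in all 11. Breakpoints between long segments ran from 18 in PAN02 to 222 in Renca on the other arrays, and sharing was not adjusted for that.

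Chromosomes 3 and 5 held 32 of the 88 breakpoints between long segments, or 36.4%, on 12.2% of the autosomal probes. On the other 15 arrays these chromosomes held 7.41% to 18.9% of such breakpoints, with a median of 11.8%. Renca had a like number, 31, but out of 222. Chromosomes 3 and 5 were singled out after the counts had been seen, and the excess was not tested.

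Chromosome 3 of CT26 alternated between levels. It held 17 segments longer than 1 Mb, with means from -0.76 to 0.68, and went up 8 times and down 8 times along its length. Of its 15 breakpoints between long segments, 11 were in no other family. Its first 3 segments lay between -0.31 and -0.13. At chr3:54494535-54501446 the mean rose by 0.65, from -0.28 ± 0.013 to 0.37 ± 0.014, within 6910 bp. Farther along, 5 segments stood at 0.48, 0.68, 0.67, 0.61 and 0.43, each with lower ground on both sides. The last 2.49 Mb stood at -0.76 ± 0.022, while 4T1 was at 0.22 and Renca at 0.07. Over the whole chromosome 4T1 and Renca had medians of 0.21 and 0.13.

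The end of chromosome 3 held the closest succession of changes. The segment chr3:153803658-156599340 stood at 0.61 ± 0.023. It was followed by 550 kb at -0.81 ± 0.053, by 200 kb at 0.43 ± 0.060 and by the terminal segment at -0.76. On these 4 stretches 4T1 stood at 0.08, -0.01, 0.08 and 0.22, and Renca at 0.02, -0.02, 0.05 and 0.07. None of the 4 segments was shared with another family. In the C57BI6 line EL4, the lowest of the C57BI6 families on all 4 stretches, the means were -0.99, -1.09, -1.01 and -0.95, without the alternation.

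Chromosome 5 held 19 segments longer than 1 Mb in CT26, with means from -0.35 to 0.78. Of its 17 breakpoints between long segments, 13 were in no other family. Gained segments covered 44.8% of its probes and lost segments 3.04%. The chromosome began at its highest level, 0.78 ± 0.015 over 7.11 Mb (chr5:3003879-10117018), against 0.13 in 4T1 and -0.37 in Renca. It stepped down to 0.46 ± 0.019 and then to -0.21 ± 0.0098 within 13.7 kb at 16.7 Mb. A gain of 20.6 Mb followed at 0.49 ± 0.011, where the other 11 families had a median of -0.09. CT26 was the highest of the 12 families in 5 of the 7 broad gains of this chromosome.

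The middle of chromosome 5 changed direction at every step. The segment chr5:62094845-67205067 stood at 0.50 ± 0.017. After a drop of -0.85, the largest step of CT26 between long segments that no other family had, the next 1.47 Mb stood at -0.35 ± 0.031. The following segments stood at 0.38 ± 0.038, -0.28 ± 0.016, 0.31 ± 0.023 and -0.33 ± 0.026. In 4T1 the same 5 segments after the drop lay between -0.10 and 0.05, and in Renca between -0.60 and -0.43.

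**Figure D3:**
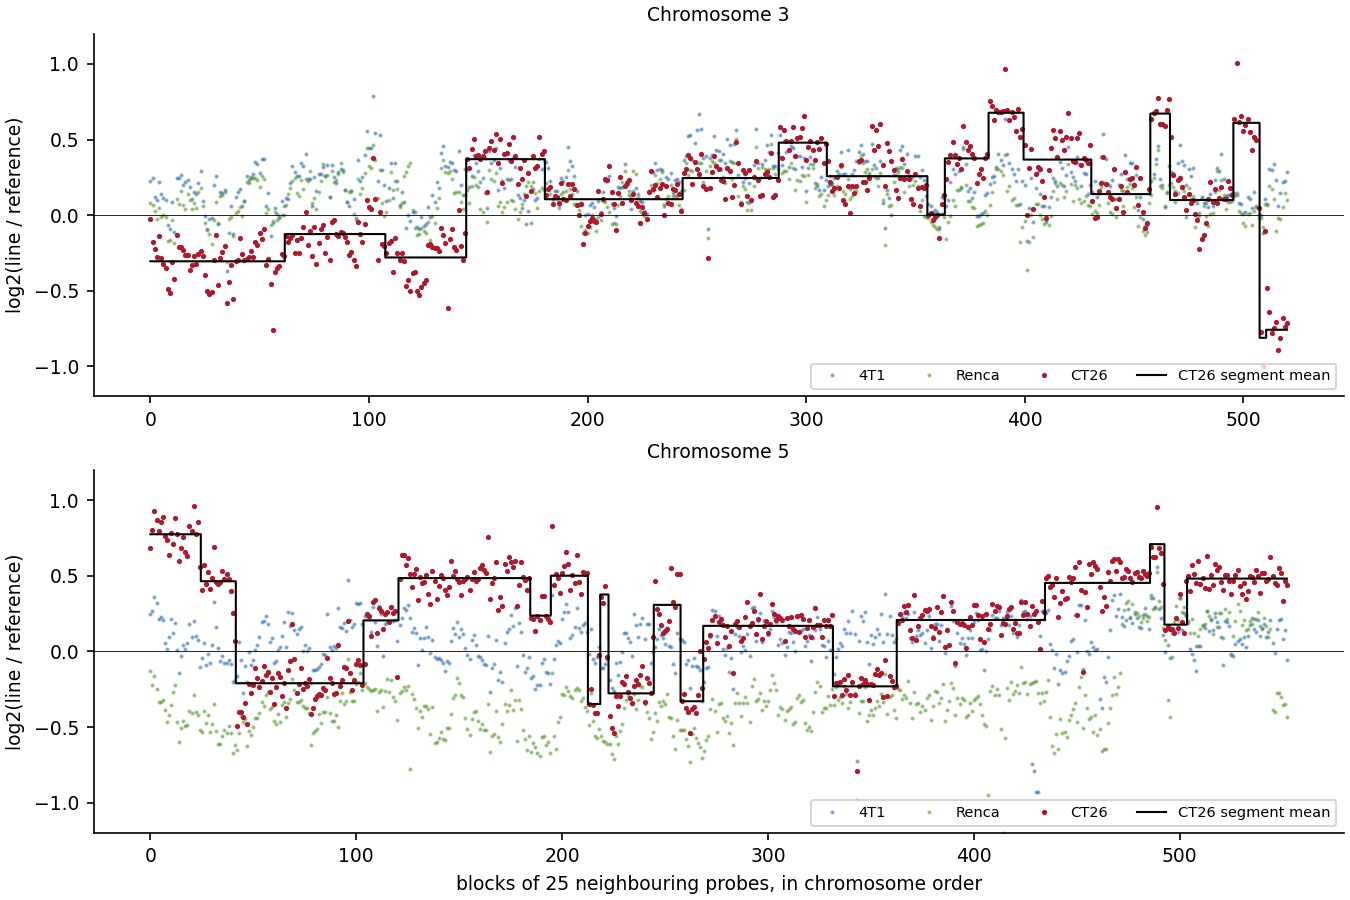
Log2 ratio of line over reference (vertical axis) in blocks of 25 neighbouring probes along chromosomes 3 and 5 (horizontal axis, probe order). Red points are CT26, blue 4T1 and green Renca, and the black line is the CT26 segment mean. CT26 moves between -0.76 and 0.68 on chromosome 3 and between -0.35 and 0.78 on chromosome 5.

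The largest step between long segments of CT26 in absolute size was 0.96, at chr4:113724872-113730301. It closes a lost stretch of 1.38 Mb, chr4:112341954-113724872, at -1.08 ± 0.12. This stretch stood at -1.20 in 4T1 and -1.27 in Renca but between -0.10 and 1.50 in the C57BI6 families, and the signal of 30 of the 54 probes in CT26, and of 19 in the reference, did not stand well above background. With both channels dim in part, the value is not a measured dose and no fold is given. Both of its edges were found in 4T1 and Renca. The remaining breakpoints among the 10 largest were in no other family. They include both edges of chr9:91008951-92117206, where CT26 stood at -0.89 ± 0.049, 4T1 at -0.24 and Renca at -0.58. The C57BI6 families ran there from -1.13 in EL4, lower than CT26, to -0.11. Another chromosome 9 loss, chr9:70212149-72476101, stood at -0.74 ± 0.021, with 4T1 at 0.03 and Renca at -0.30. In all, 2.70% of the chromosome 9 probes of CT26 were in lost segments.

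Chromosome 13 is a further example of broad changes of CT26 below the threshold. All 4 of its breakpoints between long segments were in no other family. The 47.6 Mb of chr13:36993504-84577232 stood at 0.16 ± 0.0060 between segments at -0.23 and -0.24. In 4T1 the same 3 segments stood at -0.18, -0.21 and -0.21, and in Renca at -0.34, -0.39 and -0.41.

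Focal changes, segments shorter than 5 Mb past the threshold, numbered 17 gains and 40 losses in CT26. The gains had a median length of 1467 kb and the losses of 117 kb. A focal change was counted as shared when another line showed the same sign and at least 0.5 of the CT26 difference between the segment and its 50 flanking probes on each side. By that rule 32 of the 57 were shared with both 4T1 and Renca, namely 9 gains and 23 losses. The 25 others were 8 gains and 17 losses, of which 8 and 14 were found in no other family. This rule compares a segment with its flanks and does not say that no other family was as high or low on the same probes, since a wider change elsewhere leaves no local difference. It can also count as shared a segment whose edges were found in no other family. That held for the gain chr3:120246899-125115923, at 0.68 in CT26, 0.31 in 4T1 and 0.15 in Renca. It also held for the loss chr4:75727281-80155248, at -0.62, -0.57 and -0.77 in the same lines. Focal losses of CT26 were thus more often shared with both Balb/C lines than not, by count.

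The lowest focal loss that CT26 did not share was chr6:62061489-62258209, 197 kb with 8 probes. Its mean was -5.19 ± 0.32, with probes from -6.07 to -3.70. None of the 8 probes stood well above background in CT26, so the DNA was at least 10.5-fold lower than in the reference, a bound set by the lowest signal still above background. On the same probes 4T1 stood at -0.19, Renca at -0.04 and P815 at 0.21, and the C57BI6 families ranged from -0.09 to 1.02. CT26 did not overlap with any other family here. The named losses were chosen for being lowest in CT26 and not shared, so such a separation carries no test.

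A similar pattern held at chr14:115979669-116004511, 24.8 kb with 5 probes, where CT26 stood at -5.10 ± 0.52. With 4 of 5 probes not well above background, CT26 was at least 15.7-fold lower than the reference. On these probes 4T1 stood at -0.52, Renca at -0.49 and the C57BI6 families between -1.22 and -0.34. It was followed by a shallower loss, chr14:116009409-116412276, at -0.92 ± 0.060, where 4T1 stood at -0.40 and Renca at -0.38. On the proximal side the 31 probes within 400 kb of the centre averaged -0.51 ± 0.076 in CT26 and -0.41 in 4T1, and the nearest 6, within 60 kb, averaged -0.68 ± 0.19 and -0.25. The proximal limit of the shallow loss is therefore not certain. That succession of -0.46, -5.10 and -0.92 occurred at the end of the broad low segment of chromosome 14.

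A deep loss on chromosome 4, chr4:88738012-88776278, 38.3 kb with 8 probes, stood at -4.83 ± 0.43. With 7 of 8 probes not well above background, CT26 was at least 12.8-fold lower than the reference. It was shared with 4T1, at -4.10, and not with Renca, whose mean of -1.16 was close to that of its flanks. At the first probe of the segment 4T1 stood at -0.33 and at the next at 0.02, where CT26 stood at -5.81 and -5.20. From the probe after those 4T1 was low as well, starting at -5.68. The loss thus started at different probes in CT26 and 4T1, and the 4T1 mean includes probes that were not low. P815 stood at -5.29, and the C57BI6 families ranged from -5.68 in B16 to -0.10 in TRAMPC. P815 was not counted as sharing it because its flanking probes were low as well, so the rule understates sharing where another line has a wider deletion. The broad loss of CT26 was called from the next probes, at 88864714. The level was already low before the deep deletion: the 43 probes in the 400 kb on its proximal side averaged -0.57 ± 0.049 in CT26 and 0.15 in 4T1, and the 16 in the 400 kb on its distal side averaged -0.50 ± 0.093 and 0.14. With the median of the other families subtracted, the broad loss was called from 88338496, ahead of the deep deletion. This deep deletion lies on the chromosome of Cdkn2a and Cdkn2b, and whether it covers them was not determined.

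The other named losses of CT26 were chr13:23443105-23471495, at -3.36 ± 1.02 over 5 probes, and chr10:9117235-9224620, at -1.97 ± 0.11 over 8 probes. At the first, probes ran from -6.17 to -0.59, and 4T1 stood at -0.06 and Renca at -0.22. At the second, probes ran from -2.28 to -1.51, all of them well above background, and 4T1 stood at -0.01 and Renca at 0.04. In both, the other families lay between -0.46 and 0.40, above CT26. The chromosome 10 loss has a level between the deepest broad loss, at -0.78, and the deletions near -5. Similar partial depths, picked after their values were seen, were -1.87 ± 0.12 at chr6:96094999-96163872 and -1.34 ± 0.12 at chr8:121912615-122128586, in which every probe was well above background. At the first, 4T1 stood at -0.31 and Renca at 0.05, and at the second they stood at 0.25 and 0.13.

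**Figure D4:**
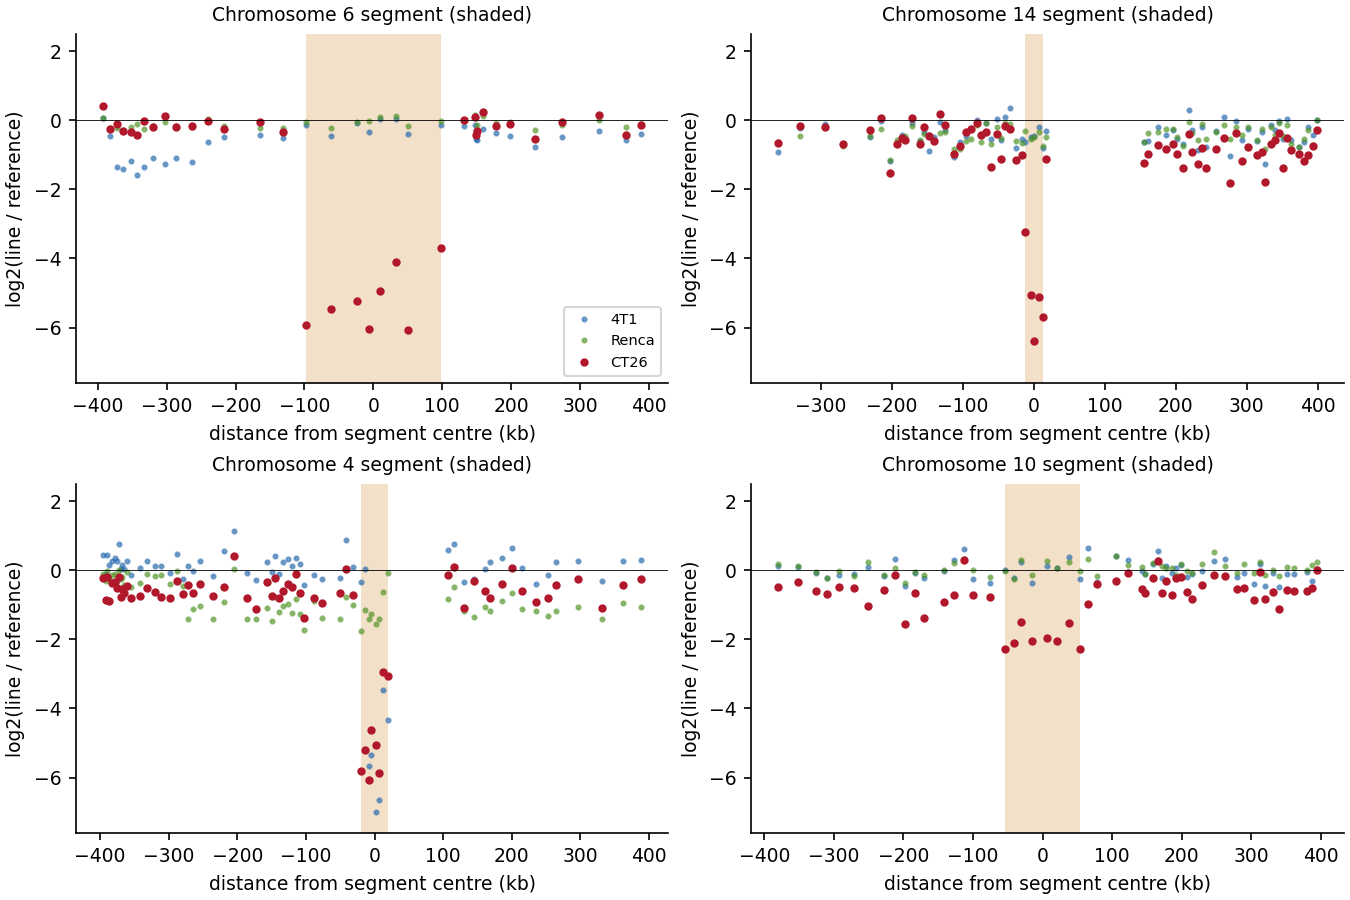
Log2 ratio of line over reference (vertical axis) for each probe within 400 kb of the centre of 4 CT26 focal losses (horizontal axis, distance in kb), with the segment shaded. Red points are CT26, blue 4T1 and green Renca. The losses on chromosomes 6, 14 and 10 are low in CT26 alone of these lines. The loss on chromosome 4 is also low in 4T1, except at its first probes.

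The focal gains that CT26 did not share with both Balb/C lines were modest in height. The 5 highest were those at 0.72 on chromosomes 15 and 6, described above, and 3 on chromosome 3, at 0.67 ± 0.025, 0.61 ± 0.023 and 0.48 ± 0.016. Other families reached such levels on some of these probes, as P815 did at 0.61 where CT26 stood at 0.48 (chr3:95345086-100184702). Another, chr4:146106310-151049112 near the end of chromosome 4, stood at 0.40 ± 0.021, against -0.06 in 4T1 and 0.26 in Renca, and was followed by 262 kb at -0.70 ± 0.050. No segment of CT26 outside the shared gains exceeded 0.78. High-level amplification of a stretch that the array could resolve was therefore not seen. By contrast, 4T1 reached means above 1 in bins of chromosomes 9 and 15, and Renca on chromosome 15, in the plot of 1 Mb bins.

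The highest focal gains of CT26 were shared. The segment chr5:62046391-62093143, 46.8 kb with 5 probes, stood at 2.40 ± 0.57 in CT26, 2.04 in 4T1, 1.37 in Renca and 2.14 in P815. The C57BI6 families ranged from 1.71 to 2.44, so all 11 other families shared it, as they did 2 neighbouring gains on chromosome 7 at 1.53 ± 0.22 and 1.34 ± 0.17. The gain on chromosome 1, chr1:141476467-141591701, stood at 1.26 ± 0.13 in CT26 and between 0.78 and 1.85 in the C57BI6 families. Under a normexp background correction with an offset of 50 it stood at -0.0055 in CT26. All arrays share the reference DNA, and its part in signals found in every line was not tested. Only 1 shared gain was found in no C57BI6 family, chr12:115933571-116132724, at 0.87 ± 0.12 in CT26, 1.26 in 4T1 and 1.11 in Renca. P815 stood at -0.91 and the C57BI6 families ran from -0.61 to 0.25. Mouse chromosome 12 carries the immunoglobulin heavy chain genes, a cluster known to vary between inbred strains, but the segment was not matched to it.

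By the sharing rule, 17 of the 23 shared losses were found in no C57BI6 family, 3 in all 8 and 3 in some. P815 shared 9 of the 17. The lowest shared loss was chr11:116564047-116580851, at -5.42 ± 0.41 over 5 probes, at least 35.1-fold lower than the reference. It stood at -5.50 in 4T1, -5.02 in Renca and -5.71 in P815, and between -2.04 and -1.59 in the C57BI6 families. This loss is among the 17 although the C57BI6 families were low there too. Their differences from the flanks, -2.27 to -1.92, were too small a share of the -5.29 of CT26 to be counted. Both of its edges were found in 10 other families, 7 of them C57BI6. At chr11:70987724-71109796, with 11 probes, CT26 stood at -3.60 ± 0.26, 4T1 at -3.70, Renca at -3.68 and P815 at -2.75, whereas the C57BI6 families ran from 0.94 to 1.18. CT26 was there at least 5.75-fold lower than the reference. These probes are thus high in C57BI6 lines and low in Balb/C and DBA/2 lines against the same reference.

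Other shared losses were seen in the Balb/C lines and not in P815. At chr19:9239304-9299188 CT26 stood at -3.87 ± 0.94, a mean at least 5.95-fold lower than the reference. Its 6 probes ran from -5.99 to 0.33, so the mean does not hold for every probe. There 4T1 stood at -4.26 and Renca at -4.74, and P815 at 0.16 lay within the C57BI6 range of -0.21 to 0.87. At chr9:41308286-41323571 CT26 stood at -3.30 ± 1.12, a mean at least 3.89-fold lower, with probes from -6.21 to -0.70. There 4T1 stood at -2.97 and Renca at -3.81, and P815 at -0.34 lay a little below the C57BI6 families, from -0.27 to 0.26. A cluster of 5 shared losses, all of them also shared with P815, lay on chromosome 6 between 129968754 and 132633520. Its lowest, chr6:131812354-131918593, stood at -3.69 ± 1.00 in CT26, -3.65 in 4T1, -3.53 in Renca and -3.14 in P815. The CT26 probes there ran from -5.73 to -1.09, and their mean was at least 6.17-fold below that of the reference.

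Whether CT26 carries its strain's variants was then examined probe by probe with the strain differences defined without it. 4T1 and Renca were compared with the 8 C57BI6 families by limma, leaving out CT26 and P815. Of 219961 autosomal probes tested, 3858, or 1.75%, had an adjusted p under 0.05, 3301 lower in Balb/C (1.5%) and 557 higher (0.253%). CT26 was nearer to the mean of 4T1 and Renca than to the C57BI6 mean at 3464 of the 3858, or 89.8%. Over all tested probes that share was 44.3%. On a scale with the C57BI6 mean at 0 and the mean of 4T1 and Renca at 1, the median position of CT26 was 0.92 (interquartile range 0.71 to 1.08). P815, likewise outside the fit, was nearer to Balb/C at 55.8% of the probes, with a median position of 0.63. Over all tested probes its share was 40.8%.

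**Figure D5:**
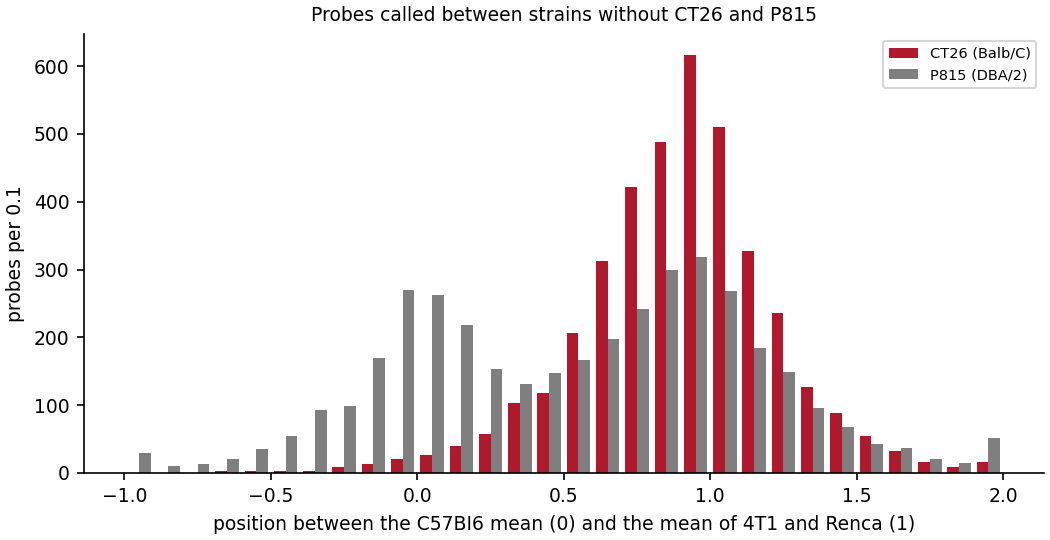
Number of probes (vertical axis, per 0.1) at each position of CT26 (red) and P815 (grey) between the C57BI6 mean, at 0, and the mean of 4T1 and Renca, at 1 (horizontal axis), over the 3858 probes called without either line. Values beyond the axis are counted in the end bars. CT26 has its peak near 1, with a median of 0.92, and P815 has peaks near 0 and near 1.

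The share depended on both Balb/C lines being in the fit. Without 4T1 CT26 was nearer to Renca at 63.6% of the called probes, and without Renca it was nearer to 4T1 at 52.4%. These shares are therefore not on the same scale as the 89.8% measured against the mean of both lines. All 3 Balb/C lines were scanned in the same batch of 6 arrays, with 3 C57BI6 arrays. With the scan batch as a block 2519 probes were called and the share was 92.5%, and within that batch 2777 were called and the share was 93.0%. Under a normexp background correction the share fell to 36.4% of 2010 probes.

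Neighbouring strain probes formed 306 runs of at least 2, and CT26 was on the Balb/C side in 289 (94.4%). Of the 257 runs with a strain difference of at least 1, it was on that side in 248. The DBA/2 line P815 was on the Balb/C side in 185 of the 306 and in 160 of the 257. The largest difference, chr19:9253858-9299188 with 5 probes, lies within a shared loss described above. There 4T1 and Renca stood at -5.26 and -5.70, the C57BI6 families at 0.37 ± 0.30 (SD, n = 8 families) and CT26 at -4.71, with a largest adjusted p of 2.04e-10 in limma. In runs lower in Balb/C at chr9:41311957-41319282, chr6:132609315-132622717 and chr8:66206494-66213579, CT26 stood at -5.03, -4.81 and -4.66. In CT26, 4T1 and Renca no probe of these 4 runs stood well above background, so their values bound the DNA from above.

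A pair of probes at chr4:25377962-25384033 differed in kind. The C57BI6 families stood at 5.28 ± 0.41 (SD, n = 8 families) and P815 at 5.54, while CT26 stood at -0.26, 4T1 at -0.32 and Renca at -0.50. Neither probe stood well above background in CT26, nor in the reference on its array. The reference therefore gave no signal well above background where CT26 gave none, and a ratio near 0 there does not stand for a normal dose.

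Among runs higher in Balb/C, the largest difference was at chr1:173400488-173405431. CT26 stood at 0.13, 4T1 at 0.12, Renca at 0.10 and P815 at 0.25, while the C57BI6 families stood at -2.19 ± 0.26 (SD, n = 8 families). A neighbouring run of 7 probes, chr1:173351486-173387683, gave -0.03 in CT26 and -2.19 ± 0.24 in C57BI6. On chromosome 12, chr12:114569431-114578297 and chr12:116004132-116018115 stood at 1.17 and 1.08 in CT26, against -0.28 and -0.39 in C57BI6. At chr4:11121120-11131130 CT26 stood at 0.97, nearer to Renca at 0.94 than to 4T1 at 2.80.

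In 9 runs with a strain difference of at least 1, CT26 lay on the C57BI6 side. In 7 of them it lay between the groups, at positions from 0.42 to 0.49. In the other 2 it lay beyond the C57BI6 mean. At chr5:124077568-124092576 CT26 stood at 0.81, beside 0.74 ± 0.22 in the C57BI6 families (SD, n = 8), while 4T1 stood at -0.65 and Renca at -0.10. At chr13:109231818-109244038 CT26 stood at 0.43 and the C57BI6 families at 0.07 ± 0.12 (SD, n = 8), while 4T1 stood at -5.90 and Renca at -0.41. In that run the strain difference rests on 4T1, in which neither probe stood well above background.

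The X chromosome of CT26 had a median of -0.80 relative to the autosomal median and was divided into 8 segments. Its segments over 1 Mb ran from -1.03 to -0.66. The X median was below 0 on every array, from -1.28 to -0.34, and the sex of the reference DNA is not given in the sources used here. On the Y chromosome 28.5% of the probes were well above background in CT26, whose label is female, against 99.7% in each of the TRAMPC lines labelled male. The Y median was -0.68 in CT26, against 3.13 in TRAMPC1 and 3.14 in TRAMPC2 over the same reference, so the reference gave far less Y signal than the male lines.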

How the data were processed

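Genomic DNA of cultured lines was measured on 16 arrays with 2 colours. CT26 had 1 array, and B16F0 and B16F10 came from more than 1 supplier each. Per the file headers, the authors' intensity values came from Agilent Feature Extraction 10.7.3.1, were background-subtracted and dye-normalized, and carry positions on mm8. The deposited log10 ratio of each spot is Cy5 over Cy3, and the deposited log2 value table differed from it by at most 5.06e-05, so its scale and direction were settled from the files. Flags for outlier spots and background came with the deposited files (other values, 0 or 1).

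Log2 ratios of the processed signals were used without control and outlier spots and centred on the autosomal median, with no loess. Of 235402 probes, 2190 had no chromosome position. Segments were found by exact optimisation of change points on squared errors, with a penalty of 6 times the noise variance times the log of the number of probes, at least 5 probes a segment, and probes limited to 3 noise SDs of a running median of 5. Breakpoints within 200 kb in the same direction were counted as shared. A named segment with most probes not well above background in the line, and all above it in the reference, is given as "at least N-fold", with the line's signal raised to the lowest signal above background. Strain differences used limma 3.58.1 (R 4.3.3, Benjamini-Hochberg at 0.05), and families are its only replicates. The scripts were tested on simulated data. Named items were the broad segments, the 10 largest breakpoints between segments over 1 Mb, the 5 highest and 5 lowest focal segments shared and not shared, and the 5 largest strain runs each way with every exception. Probes are not paired with genes in the files, so list genes (colon tumour genes, antigen presentation, interferon signalling, checkpoint ligands, mismatch repair) were placed by chromosome only, and some are not reported here. Members, lists and rules were chosen with earlier results of these data known. The planned normexp alternative used median in place of mean signals.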

Additional observations from a re-analysis of the deposited data

How the results depend on the processing

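Centring on the mode, keeping outlier spots and leaving out probes dim in the reference changed none of the CT26 counts and shares by over 1.5 times. Losses depended most on background correction: under normexp with an offset of 50, lost probes fell to 0.0594%, focal losses to 1, and focal gains rose to 45. Of the 79 broad and focal segments, 40 shifted under normexp by less than the SD of their single probes, 35 moved further and 4 reversed. That SD is wider than the standard error of a segment mean. The 4 reversed were the chromosome 1 gain at 141476467 to -0.0055, the chromosome 7 losses at 47457642 to 0.0682 and at 67501993 to 0.0784, and the chromosome 12 loss at 115574935 to 0.14. Deep losses shrank as well, the chromosome 6 loss at 62061489 from -5.19 to -0.58. Whether an offset of 50 is too large for these signals was not tested. A doubled penalty left 86 breakpoints, 5 focal gains and 23 focal losses. A threshold of 0.2 gave 22.8% gained and 25.02% lost, and 0.5 gave 2.62% and 1.50%. A focal limit of 2 Mb left 10 focal gains. Added after seeing the data, the most common level as baseline gave 47.2% gained and 1.50% lost. Subtracting the other families' median, also added then, gave 9.83% lost, 427 breakpoints, 59 focal gains and 135 focal losses, as noise fell from 0.357 to 0.153. Sharing moved little: 32 focal segments with 25 flanking probes or a share of 0.3, and 62 breakpoints within 50 kb in place of 69.

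Strain probes numbered 2010 under normexp, with CT26 on the Balb/C side at 36.4%, 2519 with scan batch as a block and 6628 after removal of each array's local level. Without 4T1 or Renca the share was 63.6% or 52.4% (3639 or 3595 probes). The cause was not tested for any of these. No paired analysis was possible because the replicate numbers are in accession order only. Noise of 0.357 limits shallow changes shorter than 1.64 Mb.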
